A study of Mus musculus with 11 samples.

Results

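H19 and 8 protein-coding or non-coding genes that are imprinted and known for their part in growth (Igf2, Dlk1, Meg3, Cdkn1c, Peg3, Plagl1, Mest and Grb10) were followed through 11 RNA-seq libraries of the mouse eye. These 9 genes, of 38393 in the files, were chosen by symbol with their measured levels known, because of the wide spread of H19 among the libraries. That spread is therefore given as a description, and no test was run on it. All 9 were among the 15767 genes that reached 1 CPM, the unit of library-scaled read counts used here, in at least 5 libraries.

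The RNA came from whole eyes freed of lens and cornea, so that retina, retinal pigment epithelium (RPE), choroid, sclera and ciliary body were sampled together. Mice were 1 to 2 months old and on a C57BL/6 background (C57Bl/6J in the methods). The 5 wild-type (WT) libraries came from littermates, 2 males and 3 females according to the methods of the study. The 6 miR-211-/- libraries (labelled KO) all came from males of a line from which the miR-211 precursor was deleted by homologous recombination, so sex and genotype cannot be fully told apart. Column names of a supplementary table divide the libraries into a series named by mouse number (WT replicates 1 and 2, KO replicates 1, 2 and 3) and a series named by age. The age series holds WT replicates 3 and 4 and KO replicates 4 and 5, named 1 month, and WT replicate 5 and KO replicate 6, named 2 months. In bulk RNA of this kind, fewer cells of a type and less RNA per cell cannot be told apart.

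Imprinted genes are transcribed mainly from the allele inherited from the mother or from that inherited from the father. H19 (maternal) and Igf2 (paternal) lie side by side and share enhancers. A control region whose methylation and CTCF binding differ between the alleles directs these enhancers to one gene or the other. Dlk1 (paternal) and Meg3 (maternal) form a similar pair. Many of these genes are strongly transcribed in the fetus and fall after birth, and H19 is known to persist in skeletal muscle. Igf2, Dlk1, Peg3, Plagl1 and Mest are paternally expressed, while H19, Meg3 and Cdkn1c are maternally expressed and Grb10 is maternal in most tissues but paternal in neurons.

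The deleted microRNA and the microRNAs carried by H19 are shown first, because the first is what separates the genotypes and the others are products of the transcript that varied most among the 9. The sequences are those of RefSeq on GRCm38.p6, written 5′ to 3′ with the seed (bases 2 to 8) in capitals.
miR-211-5p: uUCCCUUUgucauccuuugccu
miR-675-5p: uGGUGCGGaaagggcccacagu
miR-675-3p: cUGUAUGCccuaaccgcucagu
The miR-211-5p sequence lies at chr7:64205831-64205852 on the plus strand, inside the Trpm1 gene. Both arms of miR-675 lie within H19 on the minus strand, at chr7:142577112-142577133 and chr7:142577078-142577099. The 3 seeds differ from each other. Neither the Mir211 nor the Mir675 gene had a read pair assigned in any of the 11 libraries, and the same held for Mir483 in Igf2, Mir335 in Mest and Mir770 in Meg3, so these libraries do not measure the microRNAs and do not check the deletion directly. The host gene Trpm1, a cation channel of ON-bipolar and pigmented cells, was at 429 ± 67.3 CPM in WT (SD, n = 5) and 432 ± 19.2 CPM in KO (SD, n = 6).

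Matches to the miR-211-5p seed (the letters AAAGGGA, on the transcript strand only) were searched in the longest sequence after the coding end of each protein-coding member and in the longest transcript of H19 and Meg3. The 7 coding members and H19 held no match. Of the tested coding genes, 16.6% of 14519 did, over sequences of any length. At the length of each coding member, the share with a match ran from 8.0% (Cdkn1c) to 35.9% (Peg3). For whole transcripts at the length of H19 it was 20.7%. Meg3 held 3 matches in 14548 nt, and 78.8% of the 85 transcripts at least that long held one within the same length. They are shown with 10 bases on each side, the match in capitals, since Meg3 was the only member with this sequence. Each position given is that of the first capital, not of the first base shown.
Meg3, from nt 2473: cgtgatcaggAAAGGGAgaaaacaaac
Meg3, from nt 12756: ggaagtaaagAAAGGGAagccaggggc
Meg3, from nt 12780: ggcctggcaaAAAGGGAatgcttagat
A match is a description of the letters, and a lack of one says only that they are not in the window searched.

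H19, a long non-coding RNA whose gene spans 2615 bp on the minus strand (GRCm38, chr7:142575529-142578143, ENSMUSG00000000031), had the widest spread of the 9. In WT replicates 1 to 5 it was at 187, 147, 24.4, 94.7 and 25.3 CPM. In the 6 KO libraries the lowest was 13.7 CPM, the median 38.4 CPM and the highest 192 CPM. High and low libraries occurred in both genotypes, and the genotypes overlapped over almost the whole range. The highest library stood 14.0 times above the lowest (13.5 times in FPKM, which counts fragments per kilobase of transcript and scales to library size), and the SD of log2 CPM over all libraries was 1.38, at percentile 99.0 of the genes tested. The smallest expected count of H19 in a library was 352, and the largest 5291. The 3 WT libraries with Xist RNA (replicates 1, 3 and 5) included the highest and both low WT values. A ratio of 5 or more between the highest and lowest library was reached by 6.37% of genes tested and by 1 of the 9 members, H19. That count uses the values the genes were chosen on, and nothing is read from it.

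The spread of H19 went with the library series. In the mouse-number series it was at 136 ± 61.8 CPM (SD, n = 5), from 41.8 to 192, and in the age series at 35.8 ± 29.7 CPM (SD, n = 6), from 13.7 to 94.7. KO replicate 3 lay below WT replicate 4, and the series overlapped through this pair alone. In log2 CPM the age series was 2.04 lower. For none of the 9 members were the series free of overlap, whereas 11.1% of genes tested had series that did not overlap.

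**Figure D1:**
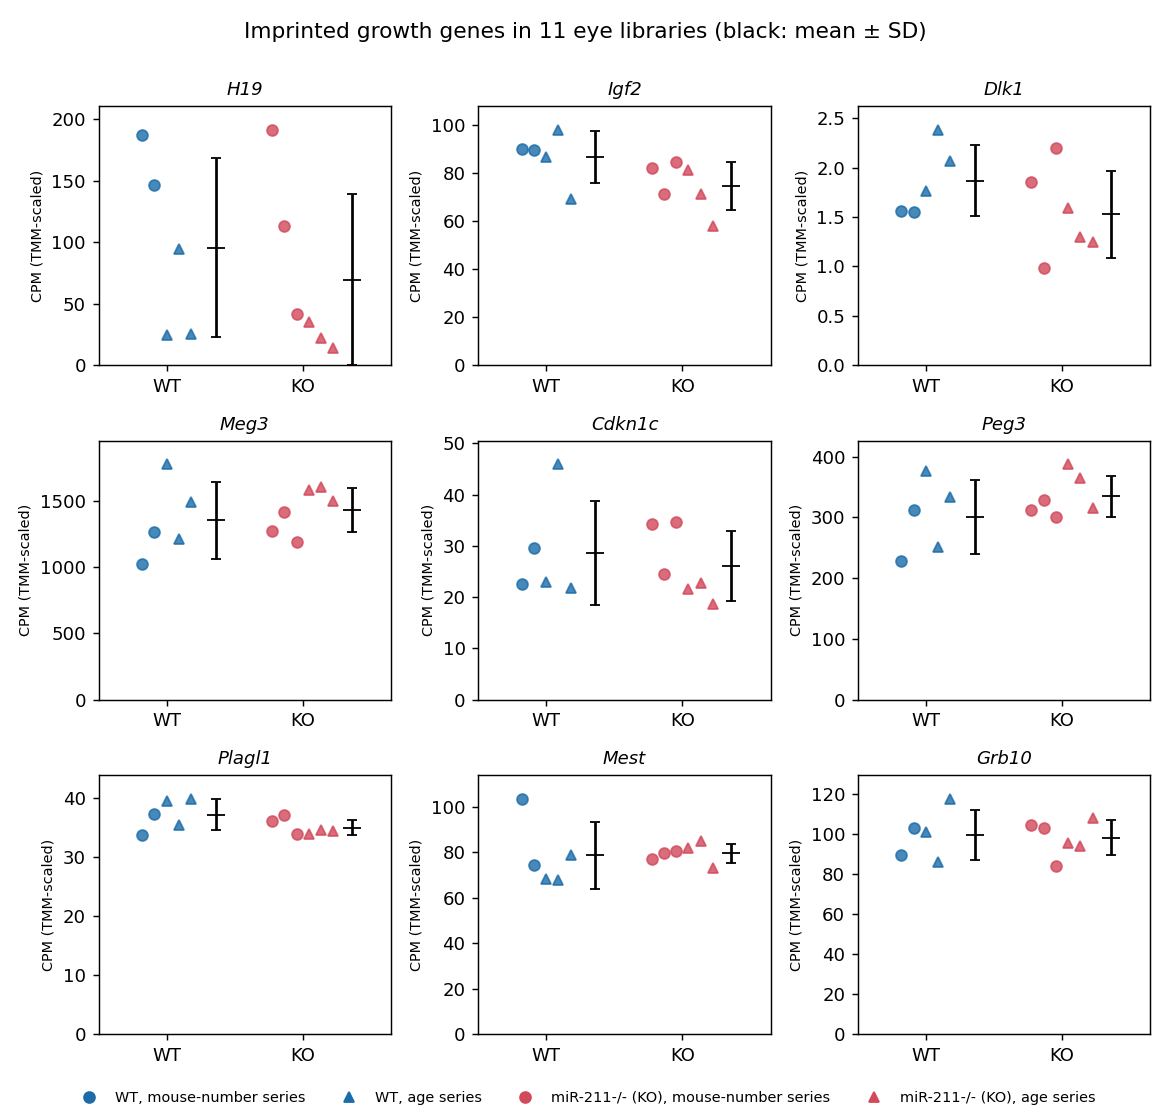
CPM (library-scaled counts with TMM factors, linear axes from 0) of the 9 imprinted growth genes in each library, WT in blue and KO in red, circles for the mouse-number series and triangles for the age series, with mean ± SD in black. H19 ran from 13.7 to 192 CPM within a single panel, while Plagl1 stayed between 33.7 and 39.9 CPM.

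Igf2, the fetal growth factor and neighbour of H19, varied far less. The gene lies 72.6 kb from H19 at chr7:142650766-142666816 (minus strand, ENSMUSG00000048583). It was at 89.8, 89.6, 86.5, 98.1 and 69.1 CPM in WT replicates 1 to 5. In KO the lowest, median and highest were 57.7, 76.3 and 84.5 CPM. The ratio of highest to lowest was 1.70, and the SD of log2 CPM was at percentile 56.4. All KO values lay below WT replicates 1 to 4, KO replicate 6 also lay below WT replicate 5, and the other KO libraries overlapped with WT through that library. The lowest in each genotype was the library named 2 months, WT replicate 5 and KO replicate 6. In Gencode M21 Igf2 overlaps the antisense gene Igf2os and the same-strand gene Gm49394. The paper reports counting with standard settings on Gencode M4 and names no strand setting, so reads of these genes cannot safely be told apart. Igf2os itself was counted at 0.662 to 1.59 CPM.

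The FPKM of H19 over that of Igf2, a ratio of levels per length, was lowest at 0.335 (KO replicate 6) and highest at 3.40 (KO replicate 1), 10.1 times apart. It was 1.45 ± 1.04 in WT (SD, n = 5) and 1.30 ± 1.28 in KO (SD, n = 6). The mean log2 ratio differed by -0.34 (KO minus WT; two-sided exact permutation test on the log2 ratios, p = 0.677).

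Meg3, a long non-coding RNA known to act in the nucleus, was the most abundant member by FPKM (plus strand, chr12:109541001-109571726). In WT replicates 1 to 5 it was at 1021, 1265, 1778, 1213 and 1489 CPM. In KO it ran from 1193 CPM through a median of 1456 CPM to 1603 CPM. The lowest and the highest library were both WT, so the KO values lay within the WT range. Meg3 and H19 ran in opposite directions across the 11 libraries, with r = -0.74 between their log2 CPM, and Meg3 and Peg3 ran together with r = 0.91. H19 and its neighbour Igf2 had r = 0.62, so Igf2 moved in part with H19, over a narrower range. Igf2 and Cdkn1c had r = 0.69. These correlations are descriptions, since the libraries share their composition and series.

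Dlk1, a membrane protein related to the Notch ligands that restrains fat cell differentiation, lay 77.7 kb from Meg3 and was the lowest member by FPKM (plus strand, chr12:109452823-109463336). It was at 1.56, 1.56, 1.77, 2.39 and 2.07 CPM in WT replicates 1 to 5. In KO the lowest, median and highest were 0.988, 1.44 and 2.20 CPM. The genotypes overlapped. The expected counts behind these levels were only 32 to 51 read pairs per library, so counting error weighs more here than in the other members.

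Among the genes that restrain growth, Cdkn1c, an inhibitor of cyclin-dependent kinases (minus strand, chr7:143458339-143461050), was at 22.6, 29.6, 22.9, 46.0 and 21.8 CPM in WT replicates 1 to 5. In KO it ran from 18.6 CPM through 23.7 CPM to 34.6 CPM. The genotypes overlapped, and the highest libraries were WT replicate 4, KO replicate 3 and, at 34.2 CPM, KO replicate 1. Summed over 7 lens genes, the first pair had the most lens RNA (63866 and 19568 CPM), while KO replicate 1 had 23.5 CPM, among the lowest. Whether lens RNA has a part in that level was not tested.

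Grb10, an adaptor that dampens insulin and IGF receptor signalling (minus strand, chr11:11930508-12038683), was at 89.6, 103, 101, 86.0 and 118 CPM in WT and from 84.4 through 99.3 to 108 CPM in KO. The genotypes overlapped over most of this range. Plagl1, a zinc-finger regulator of an imprinted gene network (plus strand, chr10:13060504-13131694), had the narrowest range. Its levels were 33.7, 37.4, 39.5, 35.5 and 39.9 CPM in WT, and 33.9, 34.5 and 37.1 CPM as lowest, median and highest in KO. Its ratio of highest to lowest was 1.18, and its SD of log2 CPM lay at percentile 7.77 of the genes tested.

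Peg3, a zinc-finger protein tied to maternal behaviour and growth (minus strand, chr7:6703892-6730431), was at 229, 313, 376, 251 and 334 CPM in WT and at 301, 322 and 388 CPM (lowest, median and highest) in KO. All KO libraries lay above the lowest pair of WT libraries and the ranges overlapped. Mest, a hydrolase that marks fetal mesoderm (plus strand, chr6:30723547-30748465), was at 104, 74.6, 68.4, 67.7 and 78.9 CPM in WT and at 72.9, 80.0 and 85.0 CPM (lowest, median and highest) in KO. The genotypes overlapped. WT replicate 1 was the highest of all libraries and without it the range narrowed from 0.61 to 0.33 on the log2 scale. Mest overlaps Copg2 on the other strand.

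Ordered by the level per length, the median FPKM over 11 libraries was 231 for Meg3, 43.8 for Peg3, 34.7 for Mest, 26.8 for Igf2, 22.3 for Grb10, 18.8 for H19, 13.0 for Cdkn1c, 9.38 for Plagl1 and 1.04 for Dlk1. Meg3 stood above Peg3 and Plagl1 above Dlk1 in all libraries with ranges that did not overlap, and all other neighbours overlapped. H19 had no fixed place in this order. It was above Cdkn1c in 7 of 11 libraries, and Grb10 was above H19 in 5 of them in spite of the higher median.

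**Figure D2:**
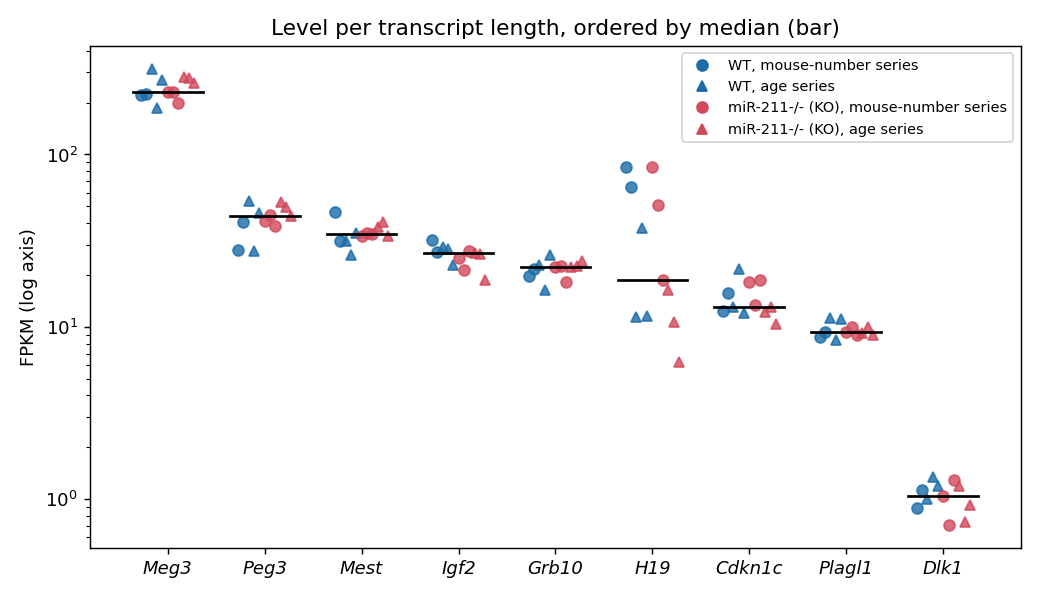
FPKM on a log axis for the 9 genes, ordered by median (black bar), with a point per library coloured by genotype and shaped by series. H19 spanned 6.29 to 84.8 FPKM, across the levels of 6 other members, while the ranges of Meg3 and Dlk1 overlapped no other gene.

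The genotype comparison asked whether the loss of miR-211 moved any of these genes. None of the 9 passed: 0 of 9 had an adjusted p under 0.1 in edgeR's likelihood-ratio test, against 0.00634% of all genes (Xist alone), and 0 of 9 had an unadjusted p under 0.05, against 2.09% of all. None of the 9 passed by the quasi-likelihood test or by DESeq2. For 0 of 9 were the libraries of the genotypes free of overlap, against 0.184% of all genes tested. By log2 fold change (KO over WT) 6 of 9 were lower in KO, beside 7713 of the 15767 genes tested. The median of the 9 was -0.09, beside 0.00 over all genes.

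H19 had a log2 fold change of -0.46 (SE 0.70, 95% interval -1.84 to 0.91, edgeR adjusted p = 1.00). The interval is wide in both directions, beside an SD of log2 CPM within genotypes of 1.40 (WT) and 1.43 (KO). Igf2 was at -0.22 (SE 0.13, -0.47 to 0.04), Dlk1 at -0.30 (SE 0.25, -0.79 to 0.19) and Meg3 at 0.08 (SE 0.20, -0.32 to 0.47). The log2 fold changes of the others were -0.14 (SE 0.24) for Cdkn1c, 0.15 (SE 0.16) for Peg3, -0.09 (SE 0.09) for Plagl1, 0.01 (SE 0.12) for Mest and -0.02 (SE 0.11) for Grb10, all with edgeR adjusted p = 1.00. Two-sided exact permutation tests on log2 CPM gave p between 0.104 (Igf2) and 0.887 (Grb10). Adding the series to the model moved H19 to -0.82 (SE 0.45, edgeR adjusted p = 0.783), and still 0 of 9 passed, at an adjusted p under 0.1 (0.0634% of all genes) or an unadjusted p under 0.05 (6.57% of all). An interaction of genotype with series passed for 0 of 9 (lowest edgeR adjusted p = 1.00), beside 3 of the 15767 genes tested.

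**Figure D3:**
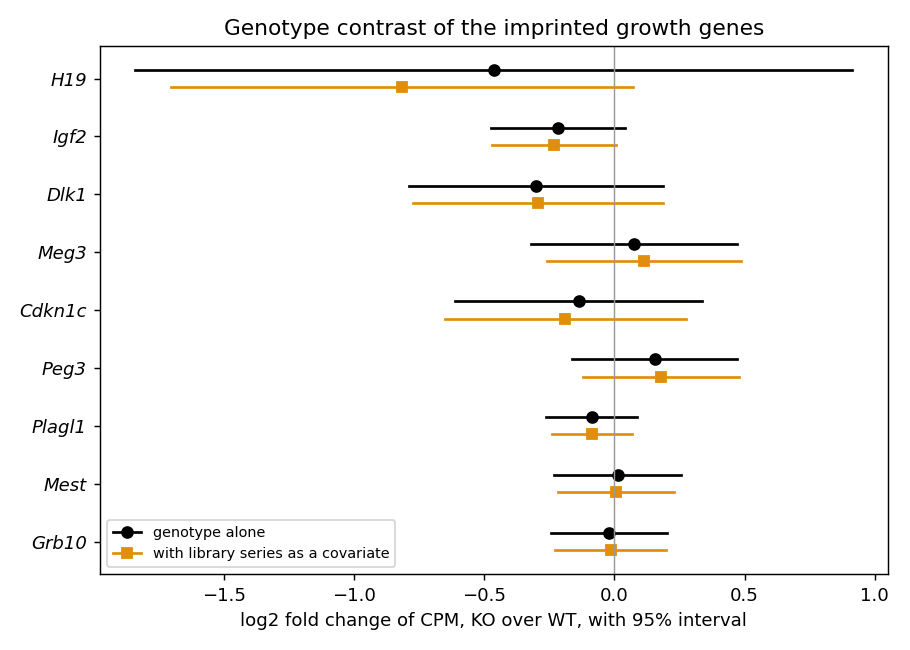
Log2 fold change of CPM, KO over WT, for each gene with its 95% interval, from the genotype term alone (black circles) and after adding the series to the model (orange squares). All intervals include 0, and that of H19 is the widest.

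Genes that moved with H19 were looked for across the libraries. H19 lies 16.9 kb from Nctc1, a non-coding gene next to a muscle enhancer of the domain, and 59.5 kb from Tnnt3, a fast skeletal muscle troponin. Nctc1 was at 13.0, 14.4, 1.60, 5.17 and 4.14 CPM in WT replicates 1 to 5 and at 1.81, 3.23 and 12.1 CPM (lowest, median and highest) in KO, a ratio of 9.03 between highest and lowest. Tnnt3 ranged 11.1 times and its neighbour Tnni2 10.7 times. The 5 libraries highest in H19 were the same 5 libraries highest in Nctc1, while 3 of those 5 were among the 5 highest in Igf2. Lsp1, a leukocyte protein, ranged 3.25 times, the mitochondrial ribosomal protein gene Mrpl23 2.77 times and Th, which makes catecholamines, 4.83 times. Of the 7 tested genes of this domain, 0 passed the genotype test. All 7 had estimates below 0 (log2 fold change of Nctc1 -0.59, SE 0.63, of Tnnt3 -0.51 and of Tnni2 -0.60), beside 7713 of the 15767 genes tested. Ins2 was too low to test.

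Libraries high in H19 were also high in muscle genes. The summed level of 12 skeletal and extraocular muscle genes was 1592 to 13334 CPM in WT and 1335 to 12576 CPM in KO, lowest in KO replicate 5 and highest in WT replicate 1, 9.99 times apart. None of the 12 was at 0 in all libraries. The 5 libraries highest in H19 were the 5 highest in this sum. Extraocular myosin Myh13 was at 346 CPM in KO replicate 1 and 1.12 CPM in WT replicate 3. By estimate the 12 genes were all lower in KO (median log2 fold change -0.56, 0 with unadjusted p under 0.05), beside 7713 of the 15767 genes tested. Whether muscle RNA has a part in the spread of H19 was not tested.

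Per 1000 CPM of the muscle genes, H19 stood at 14.0, 12.5, 15.3, 12.9 and 6.11 CPM in WT replicates 1 to 5 and at 4.87 (lowest) and 16.5 (highest) CPM in KO. The highest of these values was 3.39 times the lowest, beside 14.0 times for H19 itself. This is a description and no test of muscle, since other genes varied with H19 as well. The lowest values were those of WT replicate 5 and KO replicate 6, the pair named 2 months, and the other 9 libraries lay between 9.83 and 16.5. Between genotypes this ratio differed by 0.01 on the log2 scale (two-sided exact permutation test, p = 0.985). The names give 2 months to 1 library of each genotype and 1 month to 2 of each, and age was not tested.

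**Figure D4:**
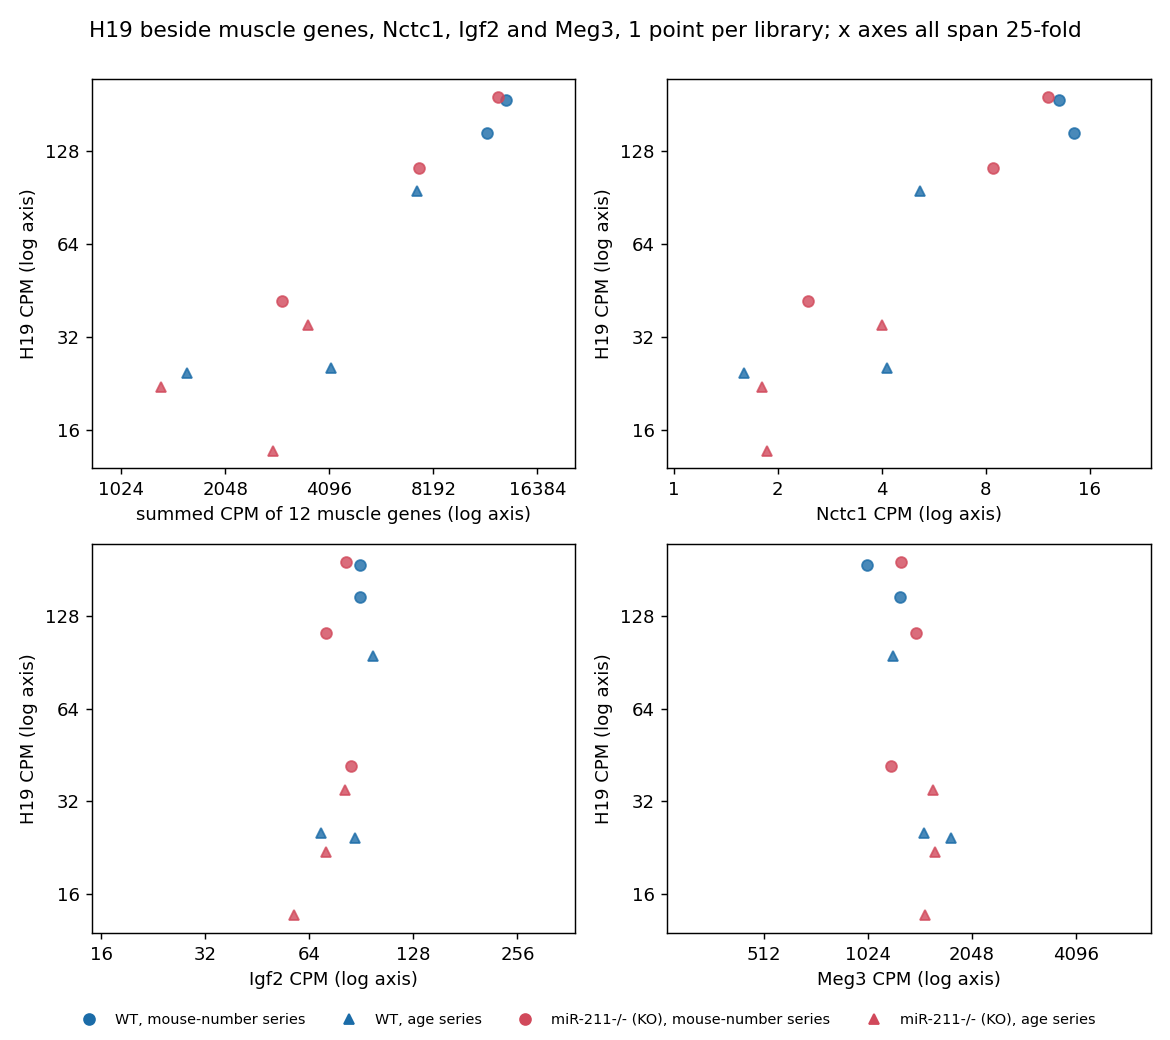
H19 CPM (log axis) against the summed CPM of 12 muscle genes, Nctc1, Igf2 and Meg3 (log axes of equal span), a point per library. Libraries high in H19 were high in muscle genes and Nctc1, whereas Igf2 stayed between 57.7 and 98.1 CPM and Meg3 between 1021 and 1778 CPM.

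**Figure D5:**
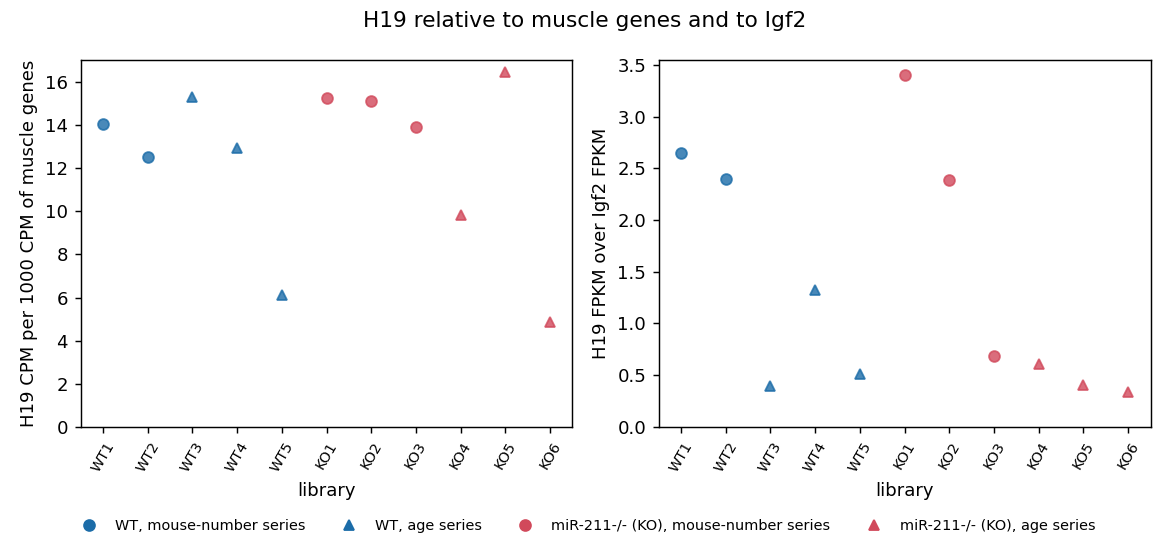
H19 CPM per 1000 CPM of muscle genes (left) and H19 FPKM over Igf2 FPKM (right) in each library, linear axes from 0. On the left WT5 (6.11) and KO6 (4.87) lie below the other 9 libraries; on the right the range is 0.335 to 3.40.

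Marker sums of other cell types also differed between these libraries. Immature muscle genes ran from 102 to 523 CPM, and their 5 highest libraries were again the 5 highest in H19. Fibroblast and sclera genes (855 to 4019 CPM), adipocyte genes (4.30 to 233 CPM), cornea and conjunctiva genes (908 to 6801 CPM, in eyes described as free of cornea) and cycling-cell genes (at most 67.4 CPM) each had 4 of those 5 libraries among their 5 highest. Rod genes (25410 to 40318 CPM) ran the other way, with the same 5 libraries as their 5 lowest. RPE genes (1058 to 1588 CPM) had 4 of the 5 among their 5 lowest libraries. Lens genes (8.23 to 63866 CPM) also had 4 of them there, at 8.23 to 24.8 CPM. WT replicate 4, also among the 5, was the highest of all in lens genes, so these gave no single direction. Endothelial genes (170 to 289 CPM) had 2 among their highest and 2 among their lowest. The part of these cell types in the levels of the members was not tested.

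By likeness of log2 CPM over the 11 libraries, the 5 genes nearest to H19 were Clec3b (Pearson r = 0.986, Spearman rho = 1.00), 1110002E22Rik (0.982 and 0.964), Sh3pxd2a (0.979 and 0.936), F13a1 (0.977 and 0.982) and Dpt (0.977 and 0.982). Clec3b encodes the plasma protein tetranectin, F13a1 a coagulation factor subunit and Dpt an extracellular matrix protein. They ranged over 5.75 to 28.1 CPM for Clec3b and 5.17 to 61.7 CPM for Dpt, and none passed the genotype test. These are the strongest of the correlations with all tested genes, over libraries that share a series and a tissue mix.

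Further imprinted genes were taken from a list of 44, of which 41 were found in the files and 35 tested. With an adjusted p under 0.1 in edgeR's likelihood-ratio test there were 0, and 1 of 35 had an unadjusted p under 0.05, a share near the 2.09% of all genes tested. The 1 gene was Dio3, the enzyme that inactivates thyroid hormone, at the far end of the Dlk1 and Meg3 domain, at 5.18 ± 0.671 CPM in WT (SD, n = 5) and 3.10 ± 0.696 CPM in KO (SD, n = 6). Its log2 fold change was -0.74 (SE 0.20, edgeR adjusted p = 0.858). The median of the 35 was -0.03, and 19 were lower in KO, beside 7713 of the 15767 genes tested. The other large estimates were -0.37 (SE 0.57) for the amino acid transporter Slc38a4 and 0.26 (SE 0.21) for Sfmbt2, a Polycomb-type repressor. The widest spread among the 35 was that of Slc38a4, with an SD of log2 CPM of 1.04, followed by the matrix proteoglycan Dcn with 0.63 and the potassium channel Kcnk9 with 0.57 (Dcn and Kcnk9, like Myh13 and Xist above, were named after their values were seen).

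Rian, a non-coding RNA and neighbour of Meg3 on chromosome 12, lay between 162 and 202 CPM, and Mirg, which carries microRNAs, between 8.39 and 13.4 CPM. Rtl1, a retrotransposon-derived gene, and Begain, a synaptic scaffold protein, ranged 1.99 and 1.91 times. Of the 5 genes of this domain list, Dio3 included, 0 had an edgeR adjusted p under 0.1.

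Genes that act with IGF2 varied by at most 2.17 times among those tested. Igf2r, which clears IGF2 and is itself imprinted, was at 67.5 to 90.5 CPM, and Insr at 116 to 144 CPM. The widest were the receptor Igf1r and the mRNA-binding protein Igf2bp2, the latter with a ratio of 2.00. Of the 6 tested in this group of 7, 0 passed the genotype test, with log2 fold changes from -0.21 to 0.16.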

How the data were processed

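Libraries of 5 WT and 6 miR-211-/- mice were sequenced in pairs of 100 nt. The authors used RSEM 1.2.19 with Gencode M4 and deposited expected counts and FPKM per gene. Rounded expected counts totalled 20282241 to 36317673 per library. Genes with 1 CPM in 5 libraries were fitted with edgeR 4.0.16 (TMM, likelihood-ratio test, genotype term) and adjusted by Benjamini-Hochberg over 15767 genes (threshold 0.1). Log2 CPM used a prior count of 2 and log2 FPKM a pseudocount of 0.1. Members, lists and the rule for named genes (members, domain genes, the 3 other imprinted genes with the largest change, the 5 genes nearest to H19, Mir211 and Trpm1) were chosen with earlier results of these data known. The library series came from supplementary column names, matched by the values of 63 genes. Symbols and positions are Gencode M21 (GRCm38). Same-numbered libraries deviated together in 3 of 5 pairs (mean r 0.22 for equal and -0.04 for different numbers). The numbers do not pair the samples throughout, since WT and KO replicate 3 lie in different series. WT replicate 5 is named 2 months and KO replicate 5 is named 1 month. Pairs 1 and 2 each share the mouse-number series, so these r values do not tell pairing from series. The main test used no pairing. Alternatives were the quasi-likelihood test, DESeq2 1.42.0, other scalings and filters, FPKM, a replicate block, the series, and each library left out.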

Additional observations from a re-analysis of the deposited data

How the results depend on the processing

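No member passed the genotype threshold under any alternative run. The count of genes called over all genes, 1 in the main test, was 0 by the quasi-likelihood test, 2 by DESeq2, 2 with any gene of at least 1 count, 10 with the replicate block, 10 with the series as covariate, 7 in the mouse-number series, 38 in the age series and 1 to 11 when each library was left out (11 without KO replicate 1, 2 without WT replicate 2). The cause was not tested. The log2 fold change of H19 stayed below 0, from -1.08 (without KO replicate 1) to -0.07 (without WT replicate 1). It was -0.24 with the replicate block, which leaves out KO replicate 6. That block pairs equal numbers (mean r 0.22 for equal and -0.04 for different numbers). Equal numbers join different series for replicate 3 and different named ages for replicate 5. Some signs turned. Grb10 was 0.021 without scaling factors, 0.049 in FPKM, 0.014 in the mouse-number series and -0.058 to 0.048 with a library left out. Mest was -0.17 in the mouse-number series, -0.028 without WT replicate 4 and KO replicate 3 (chosen after seeing the data) and -0.034 to 0.13 with a library left out. Cdkn1c was 0.25, 0.013 and -0.24 to 0.11 in the same order. Meg3 ran from -0.0099 to 0.19 with a library left out. In the mouse-number series Dlk1 was 0.089 and Plagl1 0.0094. H19 was -0.53 (SE 0.58) in the mouse-number series and -1.02 (SE 0.60) in the age series. In the age series alone Dlk1 was -0.59 (SE 0.28), Cdkn1c -0.52 (SE 0.31), Plagl1 -0.16 (SE 0.12) and Mest 0.16 (SE 0.12). Unadjusted p of edgeR's likelihood-ratio test fell under 0.05 for Dlk1 in the age series (0.036). It also did for Igf2 without WT replicate 5 (0.023). Depth limits Dlk1, at 32 to 51 read pairs.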
